A study of Mus musculus with 9 samples.

Results

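The comparison described here sets the postnatal day 14 (P14) libraries against the mean of postnatal day 1 (P1) and postnatal day 56 (P56), and asks which chromatin regions of heart muscle cell nuclei were more or less accessible in the middle of the series than at its ends. P14 supplied 3 of the 9 libraries, and each other age also supplied 3. All regions with enough counts were tested, which was 33747 of the 33844 transcription start site (TSS) regions and 25885 of the 25915 peaks; no region was chosen by its values. All hearts came from CD1 (ICR) mice, and each P1 sample pooled 12 hearts while each older sample pooled 6 to 7. Nuclei were sorted on Pcm1, a centriolar satellite protein found at the nuclear envelope of cardiomyocytes, and profiled by ATAC-seq, in which a transposase cuts open DNA and adds sequencing adapters. The labels call the libraries biological replicates and name no batch, sex or time of collection, and the growth protocol mentions surgery but does not say if it applied to these hearts.

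After birth, mouse cardiomyocytes leave the cell cycle, enlarge, exchange fetal for adult sarcomere proteins and turn from glycolysis toward fatty acid oxidation in mitochondria. P14 falls within the suckling period, when the diet is rich in milk fat and membrane systems for calcium release are still being built. An open promoter lets transcription factors and the polymerase reach the DNA, but an accessible start is not a measure of how much RNA a gene makes.

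Depth was lowest at P14. TSS counts totalled 481217 to 893032 per P14 library, against 1414979 to 2167369 for P1 and 874639 to 1468352 for P56 (P14 against the others, exact permutation p = 0.0476, two-sided, over 84 choices of which the smallest p is 0.0119). Peak counts totalled 316311 to 559445 per P14 library, against 889605 to 1217798 and 604684 to 1143607 (exact permutation p = 0.0238). The 10% of TSS regions with the most counts held 34.6% to 36.0% of a P14 library, inside the range of 32.6% to 38.6% in the other libraries (exact permutation p = 0.821). P1 replicate 1 and P56 replicate 2 stood apart from the rest of their stages: the mean level at 29 mature sarcomere genes was 5.34 on the log2 scale of CPM (counts after scaling every library to the same effective total) in the former against 5.96 and 6.18 in its partners, and 7.06 in the latter against 5.92 and 6.21. P14 lay at 5.75, 5.91 and 5.97, between those extremes, so the counts of calls and the medians of the gene lists described at length are also given without those libraries. Of the cardiomyocyte marker starts, Myh6 (the adult myosin heavy chain) had 71.1, 133 and 127 CPM in the P14 libraries. Tnnt2 (cardiac troponin T) had 138, 150 and 141 CPM, and Ttn (titin) 173, 217 and 205 CPM. Mybpc3 was lower, at 54.4, 61.2 and 69.7 CPM, and levels at Tnni3, Actn2, Ryr2 and Nppa are not given here. A level in CPM does not by itself show that a start was open or that nuclei were of cardiomyocytes. Pax6, of the silent set described further on, had more CPM at P14 than Tnnt2.

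Very few regions passed as different at P14. With edgeR's quasi-likelihood test and Benjamini-Hochberg adjustment at 0.05, 3 of 33747 TSS regions were called higher at P14 than the mean of the ends (0.00889%) and 0 lower (0%). At an unadjusted p under 0.05 there were 1130 higher and 913 lower. Of the peaks, 2 of 25885 were called higher (0.00773%) and 0 lower (0%), with 1322 and 933 at an unadjusted p under 0.05. The DESeq2 Wald test called 0 TSS regions and 1 peak, and limma-voom called 0 of each. The same fit called 81 TSS regions and 8 peaks when P1 was set against the mean of the other stages, and 355 and 82 when P56 was. Those contrasts use the same libraries and differ in depth, so their counts stand side by side only.

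A stricter question is whether P14 lay beyond P1 and beyond P56 in the same direction, each by its own test. No TSS region (0%) and no peak (0%) did so after adjustment with edgeR; 384 TSS regions and 606 peaks did at an unadjusted p under 0.05, and the DESeq2 Wald test and limma-voom also called 0 of each. The fitted P14 level was the highest of the stages at 31.1% of TSS regions, the lowest at 29.5% and between the ends at 39.3%. For peaks these shares were 32.1%, 33.5% and 34.4%. The 95% interval of the difference lay wholly within 1 log2 unit of 0 at 24003 TSS regions (71.1%) and 14569 peaks (56.3%), with a median width to either side of 0.61 and 0.67. A change of more than 1 log2 unit was therefore outside the interval at those regions, and some change of that size lay inside it at the rest.

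The TSS regions that passed were Gm10800, Gm10801 and Gm26917, all of them predicted genes, named because so few passed. Gm10800 had 123, 181 and 146 CPM at P1, 270, 481 and 426 at P14 and 217, 184 and 315 at P56, a log2 difference of 1.05 (SE 0.15, edgeR adjusted p = 0.00338). P14 replicate 1 lay below P56 replicate 3, so the stages overlapped. Gm10801 had 114, 161 and 142 CPM at P1, 197, 348 and 342 at P14 and 176, 161 and 230 at P56 (log2 difference 0.85, SE 0.15, edgeR adjusted p = 0.0356). Gm26917 had 977, 1521 and 1356 CPM at P1, 1970, 3031 and 2567 at P14 and 1854, 1506 and 2341 at P56 (log2 difference 0.69, SE 0.12, edgeR adjusted p = 0.0194). At these 2 genes too, P14 replicate 1 lay below P56 replicate 3.

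In each stage, all of these starts followed the reverse of the order in library total: the shallower the library, the higher its CPM. Such a reverse order in every stage was found at 98 of 33747 TSS regions (0.29%). Gm42418, a name that RefSeq lists for a ribosomal RNA pseudogene, was among them, with mean levels of 294 CPM (P1), 509 (P14) and 394 (P56) and a log2 difference of 0.58 that did not pass (edgeR adjusted p = 0.731). With the log2 library total as a covariate, an alternative chosen after seeing the data, the differences were -0.12 for Gm10800, -0.21 for Gm10801 and -0.23 for Gm26917. In that fit 0 TSS regions were called (734 at an unadjusted p under 0.05, fewer than that threshold alone would pass if no region differed). Library total and stage overlap, so the covariate can take up a difference of P14 along with depth. Smaller differences and 0 calls with it, here and below, therefore decide nothing about P14. Raw counts, which are the CPM times the scaled library total, did not rise at P14 and do not by themselves tell depth from age. At Gm10800 they were 264 to 283 in the P1 libraries, 208 to 243 at P14 and 244 to 270 at P56. The ranges were 235 to 271, 165 to 177 and 197 to 214 at Gm10801, and 2220 to 2583, 1253 to 1774 and 2002 to 2105 at Gm26917. Genes with repeated or near-identical copies share reads, so which copy these counts come from is uncertain. P14 is the shallowest stage, and a response to depth and a response to age cannot be fully told apart in these libraries.

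**Figure D1:**
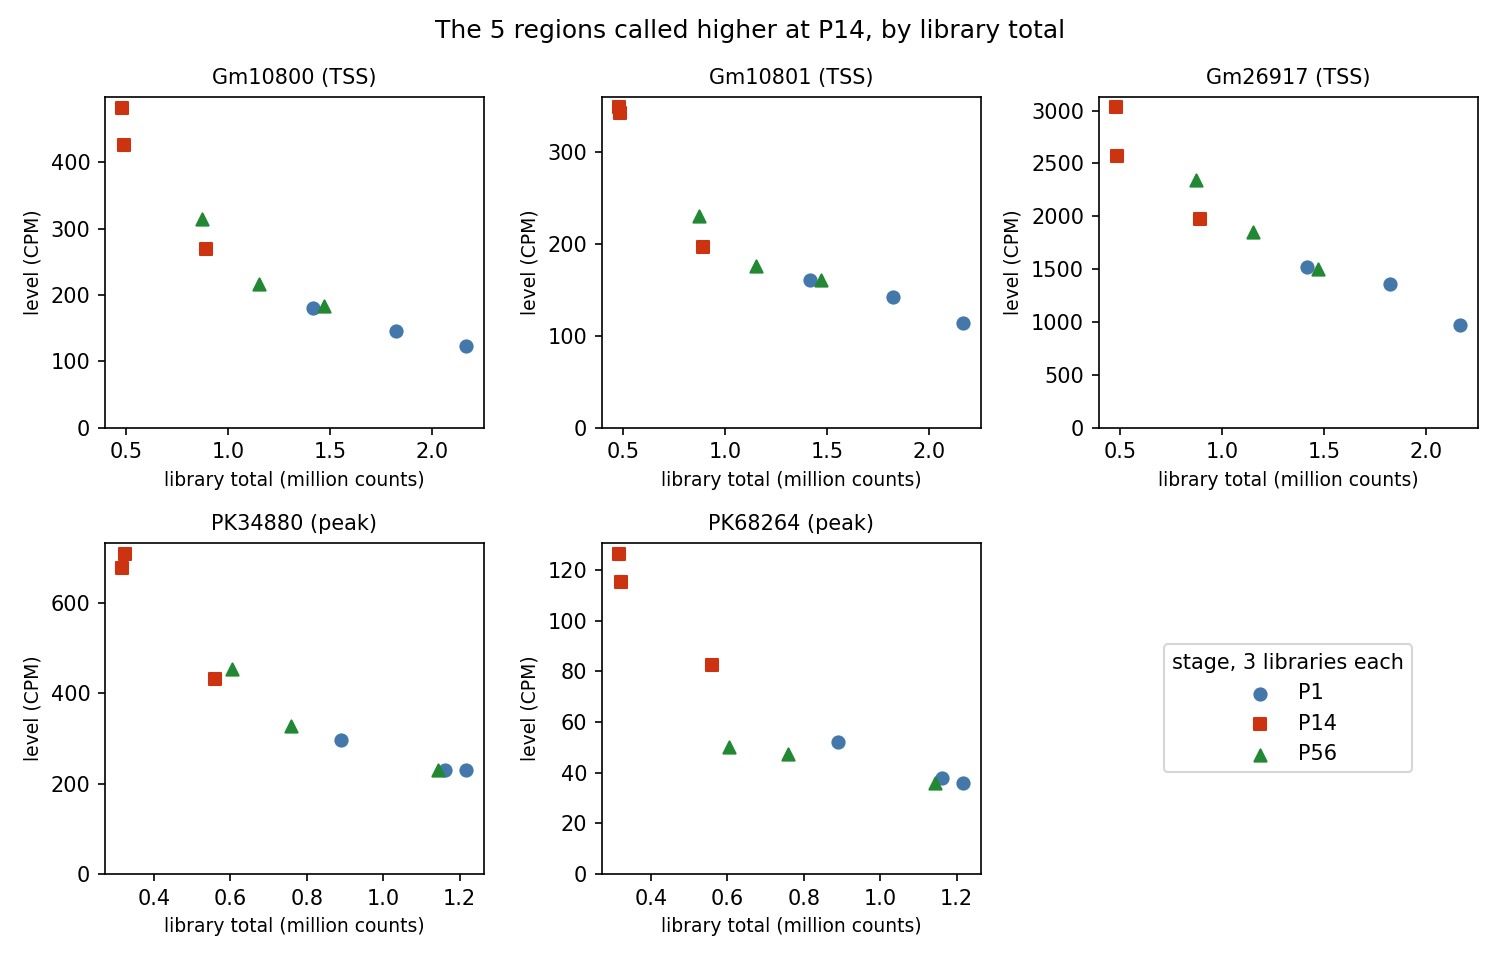
Level in CPM (vertical axis) against library total in counts (horizontal axis, in units marked there) for the 3 TSS regions and 2 peaks called higher at P14; each point is 1 library and the marker gives its stage. Levels fell as the library total grew within every stage, except between P14 replicates 2 and 3 at PK34880, and a P56 library of similar depth sat beside P14 replicate 1 for every region except PK68264.

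The called peaks were PK34880 and PK68264. PK34880, at chr2:98665793-98667822 and 1034121 bp from the nearest coding gene, had 230, 296 and 230 CPM at P1, 431, 710 and 679 at P14, and the P56 libraries had 327, 230 and 454 (log2 difference 1.05, SE 0.20, edgeR adjusted p = 0.0164). Its P14 replicate 1 lay below P56 replicate 3, and the log2 difference was -0.14 with the library total as a covariate. The raw counts at PK34880 were 280, 267 and 281 at P1, 246, 228 and 215 at P14 and 249, 244 and 272 at P56. At Gm10800 they were nearly the same in every library (283, 264 and 278, then 243, 228 and 208, then 246, 244 and 270). These calls are therefore not to be read as separate findings. PK68264, at chrX:143482560-143483626 and 34740 bp from Pak3 (a p21-activated kinase), had 37.8, 52.2 and 36.0 CPM at P1, 82.4, 115 and 126 at P14 and 47.3, 35.8 and 50.1 at P56 (log2 difference 1.31, SE 0.25, edgeR adjusted p = 0.0164). All P14 libraries lay above all others there. The raw counts at PK68264 were 46, 47 and 44 at P1, 47, 37 and 40 at P14 and 36, 38 and 30 at P56. They were thus similar across stages. As the P14 totals were smaller, similar raw counts give a higher CPM by arithmetic, whatever the cause, which was not tested. Its CPM also followed the reverse of the library totals in each stage, as at 91 of 25885 peaks (0.352%). With the library total as a covariate the log2 difference at PK68264 was 0.43 and it was not called. In that fit 0 peaks were called (281 at an unadjusted p under 0.05), with the same limit as for the TSS regions.

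Leaving out libraries moved these calls. Without P14 replicate 2, and likewise without P14 replicate 3, no TSS region and no peak was called by edgeR (1635 and 1678 TSS regions, 1690 and 1731 peaks at an unadjusted p under 0.05). Without P1 replicate 1, 9 peaks were called, without P56 replicate 1, 4 peaks, and without P56 replicate 2, 1 peak. Without both P1 replicate 1 and P56 replicate 2, an alternative also chosen after seeing the data, 16 TSS regions (6 higher, 10 lower) and 149 peaks (109 higher, 40 lower) were called. With the library total as a covariate on top, 1 TSS region and 0 peaks were called (1545 and 1282 at an unadjusted p under 0.05), and with the remaining libraries thinned to the shallowest, 11 TSS regions and 4 peaks.

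Among the 16 called in the smaller fit were Cyb561, Ssr2 and Acaca, described further on, and Nr1d2, a nuclear receptor that represses clock genes. The same fit called Hspa8, a constitutive heat shock chaperone (58.4 CPM at P1, 45.6 at P14 and 111 at P56 as means of all libraries). Its log2 difference was -0.88 without the pair of libraries (edgeR adjusted p = 0.0158) and also -0.88 with all of them (edgeR adjusted p = 0.818). Cwc22, a splicing factor, was the only TSS region there with P14 beyond each end after adjustment (edgeR adjusted p = 0.0237). Its mean level was 320 CPM at P1, 216 at P14 and 358 at P56. The P14 libraries overlapped others at Cwc22. With all libraries its difference from the mean of the ends did not pass (edgeR adjusted p = 0.793). With the library total added to the smaller fit, 0 TSS regions lay beyond each end after adjustment. These genes were picked out after their values were seen. The pair of libraries was left out for standing apart from the rest of their stages. Leaving them out can by itself lower the spread within stages and so the p-values.

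To look at single genes, the 10 higher and 10 lower named genes with the smallest p were taken from those with a mean of at least 20 counts and no overlap between P14 and the other libraries. All 3 P14 libraries lay above all 6 others at 684 TSS regions (2.03%) and below them at 476 (1.41%). None of these 20 genes passed in the fit of all libraries, with edgeR adjusted p of 0.731 to 0.818. Absence of overlap was part of the choice of these genes and is no support for them.

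The promoter windows of 4 of them are shown because their starts differ in direction and 3 of them lie under a peak with its own counts. RefSeq (GRCm38.p6) gave a window of 300 bases for 17 of the 23 genes named by rank or call. The windows are Mief1 (chr15:80233830-80234129, plus strand), Luc7l3 (chr11:94321914-94322213, minus strand), Sema3c (chr5:17574566-17574865, plus strand) and Gata5 (chr2:180334630-180334929, minus strand). Capitals mark matches to the searched motifs on either strand, which in these windows are GC boxes (GGGCGG) and, in Gata5 alone of the 4, 1 E-box (CACGTG).
Mief1: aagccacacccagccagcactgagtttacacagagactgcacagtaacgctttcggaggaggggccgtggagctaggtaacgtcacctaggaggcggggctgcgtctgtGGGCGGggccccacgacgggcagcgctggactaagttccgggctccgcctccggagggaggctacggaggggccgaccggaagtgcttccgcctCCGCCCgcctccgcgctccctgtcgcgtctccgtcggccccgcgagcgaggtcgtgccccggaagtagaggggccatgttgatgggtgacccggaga
Luc7l3: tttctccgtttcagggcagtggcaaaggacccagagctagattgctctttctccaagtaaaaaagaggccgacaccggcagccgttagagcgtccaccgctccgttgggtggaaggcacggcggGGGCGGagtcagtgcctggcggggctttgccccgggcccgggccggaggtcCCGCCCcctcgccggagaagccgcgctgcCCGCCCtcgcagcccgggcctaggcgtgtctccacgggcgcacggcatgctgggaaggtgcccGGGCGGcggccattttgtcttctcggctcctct
Sema3c: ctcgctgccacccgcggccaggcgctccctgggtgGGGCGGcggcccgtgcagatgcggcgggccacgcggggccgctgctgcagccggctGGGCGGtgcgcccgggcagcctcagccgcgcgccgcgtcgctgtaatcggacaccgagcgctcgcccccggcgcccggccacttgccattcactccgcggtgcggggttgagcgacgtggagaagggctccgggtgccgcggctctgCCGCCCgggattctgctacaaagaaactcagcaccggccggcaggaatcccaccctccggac
Gata5: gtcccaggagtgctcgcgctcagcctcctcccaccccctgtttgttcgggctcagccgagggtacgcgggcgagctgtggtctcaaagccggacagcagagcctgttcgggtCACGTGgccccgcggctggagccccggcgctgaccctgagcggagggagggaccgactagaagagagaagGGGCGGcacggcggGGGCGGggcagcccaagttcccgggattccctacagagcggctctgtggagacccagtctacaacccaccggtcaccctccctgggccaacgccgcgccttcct

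GC boxes, the site of Sp family factors, occurred in 35.7% of all 32851 RefSeq windows of this length, in 4 of the 9 windows of the lower genes and in 7 of the 10 windows of the higher genes. The CCAAT box (CCAAT) occurred in 37.4% of all windows, in 4 of the 9 lower and 2 of the 10 higher. The E-box was in 7.15% of all windows, in 0 of the 9 and in 1 of the 10. The other motifs searched on both strands were TATAAA (13.6% of all windows; 2 and 0), AGATAA (11.2%; 0 and 0), TGACGTCA (1.79%; 0 and 0), TGANTCA (7.81%; 0 and 1), AGGTCA (16.3%; 0 and 2), CATTCC (14.7%; 0 and 3) and the NRF1 site (0.971%; 0 and 1). Slc35c2 and Rbm4 each had a pair of windows that share bases. A match describes letters in the window and is no evidence of binding.

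Mief1, an adaptor that recruits the fission factor Drp1 to mitochondria, had 26.9, 31.5 and 39.4 CPM at P1, 22.2, 16.9 and 20.5 at P14 and 52.9, 76.0 and 44.3 at P56. The log2 difference was -1.10 (SE 0.28, edgeR adjusted p = 0.738). The peak over its start, PK23033, counts overlapping DNA from the same libraries and had 61.7, 52.2 and 66.3 CPM at P1, 42.1, 28.01 and 34.7 at P14 and 82.8, 109 and 75.1 at P56 (log2 difference -1.04, SE 0.29, edgeR adjusted p = 0.367). P14 was the lowest stage without overlap in each table, and neither passed. With the library total as a covariate the differences were -0.58 and -0.32.

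Luc7l3, a splicing factor, had 65.6, 51.4 and 75.6 CPM at P1, 40.0, 40.1 and 36.9 at P14 and 62.5, 111 and 68.7 at P56 (log2 difference -0.89, SE 0.23, edgeR adjusted p = 0.744). The P14 libraries were close together and below all others. Its peak had a log2 difference of -0.84 (SE 0.33) with stages that overlapped. Sema3c, a secreted semaphorin that guides neural crest cells into the cardiac outflow tract, had 39.1, 29.5 and 35.7 CPM at P1, 23.3, 14.8 and 18.4 at P14 and 34.4, 48.9 and 37.3 at P56 (log2 difference -0.94, SE 0.27, edgeR adjusted p = 0.818). Its peak lay below in all P14 libraries at -1.27 (SE 0.42, edgeR adjusted p = 0.416). With the library total as a covariate, the start of Luc7l3 was at -0.26 and that of Sema3c also at -0.26.

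Acaca, the acetyl-CoA carboxylase that makes malonyl-CoA for fatty acid synthesis, had 69.5, 86.3 and 87.2 CPM at P1, 46.6, 54.8 and 43.0 at P14 and 80.2, 115 and 75.7 at P56. Its log2 difference was -0.84 (SE 0.20, edgeR adjusted p = 0.731), and between -0.95 and -0.68 in all 25 settings in which it was tested. The settings reuse the libraries by which Acaca was chosen, so this range is no support for it. Ssr2, a subunit of the translocon-associated complex at the endoplasmic reticulum, had 30.4, 30.8 and 30.5 CPM at P1, 11.1, 27.4 and 10.2 at P14 and 40.5, 64.7 and 43.1 at P56 (log2 difference -1.34, SE 0.31, edgeR adjusted p = 0.731). P14 replicate 2 was close to the P1 libraries there. Rbm4, an RNA-binding splicing regulator, was at -1.25 (SE 0.36), and the peak at its start was at -0.95 (SE 0.42) with no overlap. Elavl1, which stabilises mRNAs, was at -1.13 (SE 0.33) at its TSS region, while the peak over its start was at 0.41 (SE 0.30), so the tables differed in sign. Its annotated start lies 110 bp from that of Ccl25, and the counts carry no strand.

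The remaining lower genes were Snord83b (a small nucleolar RNA, -1.33), Coa4 (an assembly factor of cytochrome c oxidase, -1.17) and Vmn2r4 (a vomeronasal receptor, -1.24). Their P14 levels were 6.15 to 10.0 CPM, 11.1 to 14.3 CPM and 6.33 to 12.3 CPM. These are low counts, and none of the 3 passed.

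Gata5, a zinc finger factor of the endocardium and early heart, was the clearest of the cardiac factors on the higher side. It had 19.1, 22.6 and 18.9 CPM at P1, 35.5, 40.1 and 45.1 at P14 and 22.02, 21.1 and 23.3 at P56 (log2 difference 0.91, SE 0.23, edgeR adjusted p = 0.793). The ends were nearly level with each other and all P14 libraries lay above them. The difference was 0.55 with the library total as a covariate, and above 0 in all 24 settings in which it was tested. Those settings reuse the libraries by which Gata5 was chosen, so the constant sign is no support for it. Hand1, another factor of the early heart tube, showed the same lack of overlap at 35.9 to 45.5 CPM at P14 against 18.8 to 32.2 elsewhere (log2 difference 0.64, SE 0.24, edgeR adjusted p = 0.818).

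Cyb561, a membrane protein that passes electrons from ascorbate, had 75.6, 67.8 and 59.3 CPM at P1, 126, 124 and 131 at P14 and 105, 99.3 and 93.2 at P56 (log2 difference 0.63, SE 0.15, edgeR adjusted p = 0.731). The P14 libraries agreed closely and P56 lay between them and P1. It was at 0.71 with the library total as a covariate and passed in 1 of its 25 settings, the fit without P1 replicate 1 and P56 replicate 2. Lrp1, an endocytic receptor of the LDL receptor family, had 168, 171 and 150 CPM at P1, 235, 266 and 227 at P14 and 203, 197 and 205 at P56 (log2 difference 0.42, SE 0.12, edgeR adjusted p = 0.818). The peak at the Lrp1 start was at 0.10 (SE 0.26).

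The others on the higher side were Duxf3 (0.70), Slc35c2 (0.51), Egfl8 (0.82), Kif26a (0.64), Prm3 (1.03), Lhx4 (0.69) and Vsig10l (0.56), as log2 differences. Duxf3 belongs to a multicopy array of double homeobox genes, so its counts are uncertain. Prm3 is a gene of the protamine cluster of sperm and Lhx4 a LIM homeobox factor of the pituitary. The plot of named TSS regions by library shows the spread behind each.

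**Figure D2:**
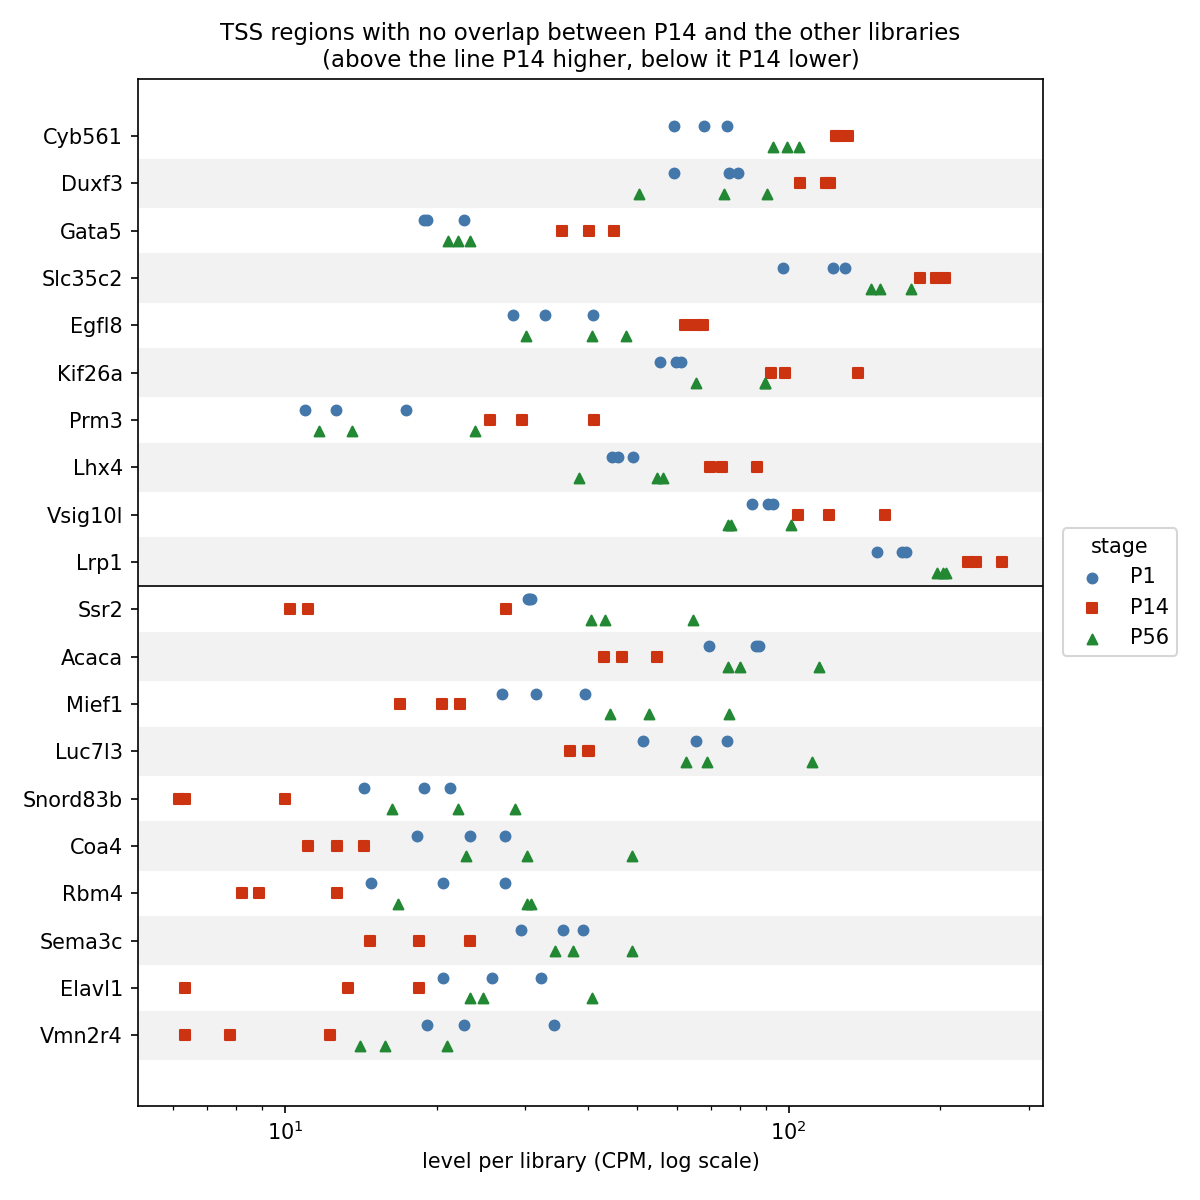
Level per library in CPM (horizontal log axis) at the 20 TSS regions chosen for having no overlap between P14 and the other libraries; markers give the stage, 3 libraries each. No gene passed after adjustment; the P14 points of Gata5 sit at 35.5 to 45.1 CPM against 18.9 to 23.3 for the other 6 libraries.

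Peaks chosen in the same way, 5 in each direction, came from 724 with all P14 libraries above the others (2.8%) and 426 with all below (1.65%). On the higher side, PK60084 (chr8:83756290-83757487, 14979 bp from Adgre5) had 25.5, 33.3 and 24.6 CPM at P1, 56.1, 99.6 and 97.8 at P14 and 49.9, 38.6 and 48.4 at P56 (log2 difference 1.22, SE 0.27, edgeR adjusted p = 0.166). The difference was 0.28 with the library total as a covariate. Raw counts at PK60084 were 30 to 31 in the P1 libraries, 31 to 32 at P14 and 29 to 41 at P56. PK49562 lies inside Nptx2 (neuronal pentraxin), PK42336 lies 608670 bp from Map3k7 and PK14302 lies 418088 bp from Zfp386, with log2 differences of 1.31, 1.29 and 1.31 and edgeR adjusted p of 0.252 to 0.294.

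On the lower side, PK36493 (chr2:163353332-163354823) lies inside Jph2, which encodes junctophilin, the protein that ties the T-tubule to the sarcoplasmic reticulum. It had 32.1, 49.9 and 74.5 CPM at P1, 19.3, 24.9 and 18.9 at P14 and 36.8, 67.9 and 45.1 at P56 (log2 difference -1.30, SE 0.35, edgeR adjusted p = 0.343). P14 lay below the lowest P1 library, which was replicate 1. PK45213 lies at Maco1 (-1.27), PK30183 lies 140909 bp from Zfp608 (-1.38) and PK15561 lies 1790 bp from Tmem170b (-1.22); none passed.

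**Figure D3:**
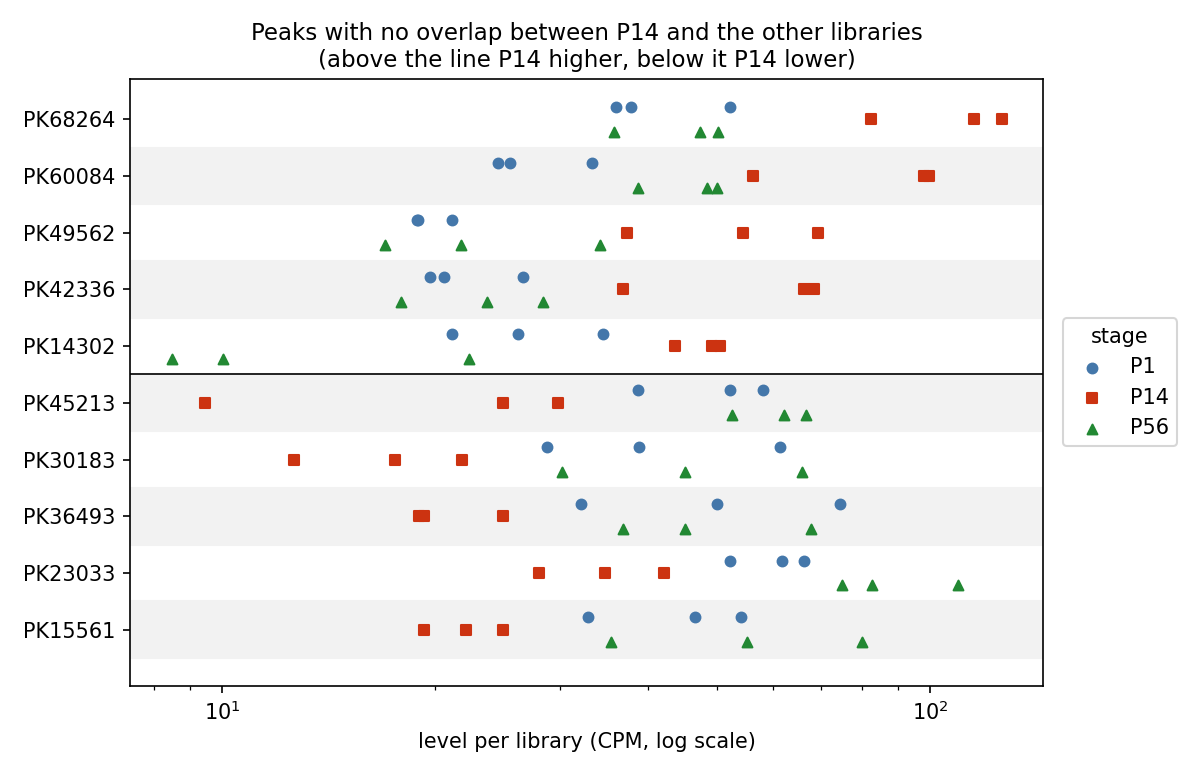
Level per library in CPM (horizontal log axis) at the called peak PK68264 and the 9 other peaks chosen for having no overlap between P14 and the other libraries; markers give the stage, 3 libraries each. Only PK68264 passed; for PK36493, inside Jph2, the P14 points sit at 18.9 to 24.9 CPM and the others at 32.1 to 74.5.

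Taken peak by peak, the P14 difference varied with place. Peaks of the same libraries are not replicates, and the shares by library, given below, did not set P14 apart. Of the peaks with all P14 libraries above the others, 13.1% lay within 1 kb of a RefSeq start, against 35.0% of those with all below and 29.2% of all peaks. Peaks over 50 kb from a coding gene, whether or not a non-coding start lay nearby, made up 21.7%, 7.51% and 16.4%. The median log2 difference was -0.15 over the 7552 peaks within 1 kb of a start, 0.02 over 9275 inside coding genes away from a start, 0.10 over 4946 outside but within 50 kb and 0.20 over 4112 farther away, where peaks near any start were counted in the start class only. The RefSeq start table is not complete, so the group inside genes can hold some starts.

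By library, the share of peak counts within 1 kb of a start was 30.0%, 37.1% and 40.2% at P1, 33.5%, 35.4% and 34.2% at P14 and 35.8%, 42.8% and 37.8% at P56. The P14 shares lay inside the range of P1, and the difference from the other libraries was -2.91 percentage points (exact permutation p = 0.310, two-sided; 0.524 adjusted over 4 classes). For peaks over 50 kb from a coding gene the shares were 14.4%, 12.2% and 11.4% at P1, 13.2%, 12.4% and 12.9% at P14 and 11.4%, 7.94% and 10.7% at P56 (exact permutation p = 0.310, 0.524 adjusted). With the library total as a covariate the class medians were -0.01 at starts and -0.04 far from genes, and with all libraries thinned to the shallowest they were -0.11 and 0.21. The classes also differed in depth, with a median mean count of 31.7 at starts and 16.9 far from genes.

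**Figure D4:**
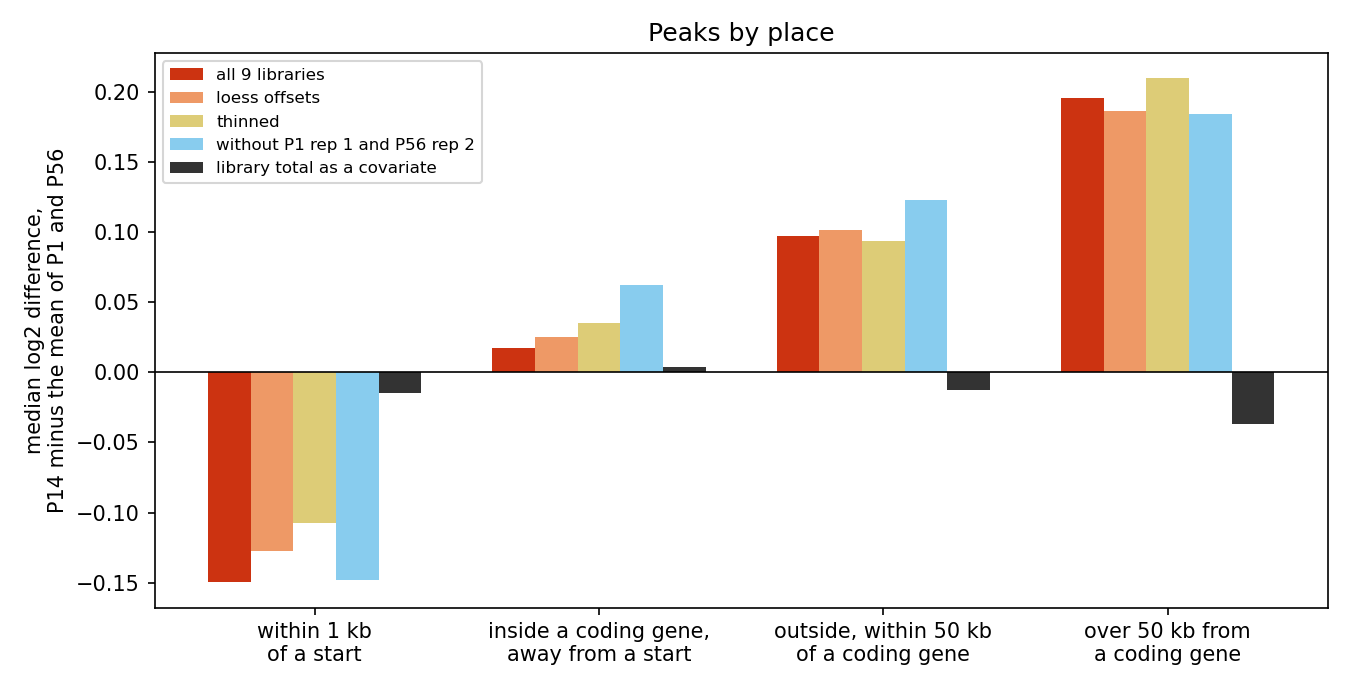
Median log2 difference of P14 from the mean of P1 and P56 (vertical axis) for peaks in 4 classes of place, under 5 settings given by bar colour. Under 4 of them the median ran from below 0 at starts to about 0.2 over 50 kb from a coding gene, and with the library total as a covariate all medians lay within 0.04 of 0.

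Gene groups were described with 37 lists, of which 27 covered heart biology, 7 markers of other cell types and 3 technical sets; 908 of their 997 genes were measured at the TSS. No list member was called. P14 lay above all others without overlap at 27 members (2.97%) and below at 11 (1.21%), against 2.03% and 1.41% of all TSS regions. The median log2 difference of all tested regions was 0.01; P14 was the highest stage at 31.1% of them and the lowest at 29.5%, and 913 of 33747 were lower at an unadjusted p under 0.05.

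Genes of the mature sarcomere, the contractile unit of adult muscle, had a median of -0.29. P14 was the lowest stage at 10 of 29, between the ends at 19 and the highest at 0. The medians were 0.06 against P1 and -0.67 against P56, comparisons that share the P14 libraries, so P14 was near P1 by this median. The P1 libraries were spread out. All P14 list means (5.75, 5.91 and 5.97) lay above P1 replicate 1 (5.34) and below P1 replicate 3 (6.18), with P1 replicate 2 at 5.96. Tcap, the titin cap protein, had 30.9, 52.8 and 42.0 CPM at P1, 34.4, 59.1 and 32.8 at P14 and 67.0, 143 and 103 at P56 (log2 difference -0.68, unadjusted p = 0.0115, edgeR adjusted p = 0.818). The list median was -0.064 without P56 replicate 2 alone, -0.16 without P1 replicate 1 and P56 replicate 2, and -0.10 with the library total as a covariate.

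Oxidative phosphorylation and TCA cycle genes, which make ATP in mitochondria, had a median of -0.28, with P14 between the ends at 21 of 30, lowest at 8 and highest at 1. Their medians were 0.06 against P1 and -0.69 against P56. Atp5a1, a subunit of ATP synthase, had 46.5, 56.2 and 56.7 CPM at P1, 54.4, 40.1 and 79.9 at P14 and 96.9, 202 and 101.4 at P56. P1 and P14 overlapped there and P56 was higher. The median of the list was -0.13 without P56 replicate 2, -0.19 without P1 replicate 1 as well, and -0.065 with the library total as a covariate. Medians were -0.17 for fatty acid uptake and oxidation, -0.21 for glycolysis and hypoxia, -0.17 for calcium handling and -0.053 for PPAR alpha and ketone targets of the suckling period. Without P56 replicate 2 they were 0.016, -0.057, -0.077 and 0.058, so the sign turned for the fatty acid and PPAR alpha lists. Without both P1 replicate 1 and P56 replicate 2 they were -0.053, -0.17, -0.089 and -0.001, and with the library total as a covariate -0.049, -0.060, -0.012 and 0.015.

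The circadian clock list had P14 lowest at 13 of 21 genes (29.5% of all regions), and 7 were lower at an unadjusted p under 0.05 (913 of all 33747 regions), with a median of -0.34. It was -0.02 against P1 and -0.43 against P56. Per1, a light- and hormone-responsive repressor of the clock, had 64.7, 110 and 103 CPM at P1, 81.1, 82.3 and 67.6 at P14 and 115, 266 and 148 at P56 (log2 difference -0.72, edgeR adjusted p = 0.818). Nr1d2 had 32.2, 92.5 and 97.1 CPM at P1, 43.3, 54.8 and 53.3 at P14 and 70.5, 153 and 92.0 at P56 (log2 difference -0.83, edgeR adjusted p = 0.818). P1 replicate 1 was lower than every P14 library at each of the pair. The list median was -0.13 without P56 replicate 2, -0.15 without P1 replicate 3, -0.20 without P1 replicate 1 and P56 replicate 2, and -0.25 with the library total as a covariate. The hour of collection is not given in the labels, and its part was not tested.

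Antioxidant defence genes had a median of -0.25, with P14 lowest at 13 of 29 (29.5% of all regions) and 7 lower at an unadjusted p under 0.05 (913 of all 33747). The median was -0.12 without P56 replicate 2, -0.20 without P1 replicate 1 as well, and -0.37 with the library total as a covariate. Gclc, the catalytic subunit of glutathione synthesis, had 19.1, 26.7 and 23.1 CPM at P1, 21.1, 16.9 and 14.3 at P14 and 39.6, 43.6 and 27.96 at P56 (log2 difference -0.69, edgeR adjusted p = 0.818). P14 overlapped P1 and lay below P56. Immediate early and stress response genes had a median of -0.18, which was -0.041 without P56 replicate 2, -0.071 without P1 replicate 3, -0.19 without P1 replicate 1 and P56 replicate 2 and -0.25 with the covariate. Cardiac transcription factors, with a median of -0.15, held members in either direction: Mef2a, a muscle gene activator, was at -0.74 (edgeR adjusted p = 0.818), against 0.91 for Gata5. That list's median was 0.030 without P56 replicate 2, -0.12 without P1 replicate 1 as well, 0.0056 after thinning and -0.056 with the covariate.

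Calcium handling genes included Slc8a1, the sodium-calcium exchanger, which had 13.9, 10.96 and 18.9 CPM at P1, 7.77, 6.33 and 6.15 at P14 and 14.1, 27.8 and 12.8 at P56. The P14 libraries lay below all others (log2 difference -1.25, edgeR adjusted p = 0.818); the difference was -0.18 with the library total as a covariate. Atp2a2, the calcium pump of the sarcoplasmic reticulum, was at -0.76 with stages that overlapped (edgeR adjusted p = 0.818).

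HOX and other Polycomb targets, developmental regulators that are held silent in adult heart muscle, had the highest median of the lists, 0.31. P14 was the highest stage at 24 of 29, against 31.1% of all regions, and above all others without overlap at 6, against 2.03% of all regions: Hoxb4, Hoxc6, Hoxd3, Pax2, Pax6 and Lhx9. Pax6, an eye and brain factor, had 151, 156 and 150 CPM at P1, 184, 177 and 172 at P14 and 166, 82.8 and 120 at P56 (log2 difference 0.38, edgeR adjusted p = 0.818). Hoxb4 had 10.9, 12.3 and 8.93 CPM at P1, 16.7, 18.98 and 18.4 at P14 and 9.69, 12.8 and 6.99 at P56 (log2 difference 0.77, edgeR adjusted p = 0.818). The mean level of the list was 4.89, 5.08 and 4.98 at P1, 5.30, 5.36 and 5.06 at P14 and 5.19, 4.65 and 5.06 at P56 on the log2 CPM scale. The libraries overlapped, as P14 replicate 3 lay below P1 replicate 2 and P56 replicate 1. The list median was 0.18 without P1 replicate 1 and P56 replicate 2, 0.23 after thinning and 0.04 with the library total as a covariate.

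Markers of other cell types were described in the same way, since the sort can let through nuclei that are not of cardiomyocytes. Endothelial markers had a median of 0.24, and theirs was the only list of the 37 whose mean level was higher in all P14 libraries (5.31, 5.46 and 5.26 on the log2 CPM scale) than in all others (4.98 to 5.26). P14 replicate 3 and P1 replicate 2 nearly met. The summed level of its 20 measured markers was 987 to 1107 CPM in the P14 libraries, against 834 to 962 in P1 and 828 to 1026 in P56, so sums overlapped, and no member was at 0 in any library. Tie1, an endothelial receptor kinase, had 18.7, 20.6 and 14.2 CPM at P1, 23.3, 35.9 and 26.6 at P14 and 12.3, 20.3 and 10.5 at P56 (log2 difference 0.77, edgeR adjusted p = 0.818). Esam, an adhesion molecule, also lay above without overlap (0.44), and Mmrn2 lay below (-0.58).

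Smooth muscle and pericyte markers had a median of 0.20, glial and neuronal markers 0.19, leukocyte markers 0.18, erythroid and epicardial markers 0.09 each and fibroblast markers 0.02. Summed over 20 smooth muscle and pericyte genes, the level was 594 to 630 CPM in the P1 libraries, 705 to 764 in P14 and 757 to 885 in P56, and the median was 0.31 against P1 and 0.065 against P56, so the sum at P14 lay above P1 and overlapped the lower part of P56. The sums over 19 glial and neuronal genes were 519 to 601 (P1), 675 to 722 (P14) and 579 to 740 CPM (P56), and over 20 leukocyte genes 572 to 708, 696 to 721 and 578 to 704 CPM. Over 20 fibroblast genes they were 593 to 669, 605 to 675 and 567 to 673 CPM, and P14 overlapped P56 for all 3 of these lists. Over 14 epicardial genes the sum was 426 to 444 CPM in the P14 libraries, above 369 to 383 in P1 and 362 to 416 in P56, and over 12 erythroid genes it was 521 to 539, against 413 to 495 and 504 to 556. Without P1 replicate 1 and P56 replicate 2 the medians were 0.22 (endothelial), 0.14 (smooth muscle and pericyte), 0.13 (glial and neuronal), 0.15 (leukocyte), 0.052 (erythroid), 0.11 (epicardial) and -0.080 (fibroblast). With the library total as a covariate they were -0.033, 0.10, 0.13, 0.051, 0.24, 0.21 and -0.024 in the same order, so the erythroid and epicardial medians were larger with it. The leukocyte median was -0.010 without P14 replicate 1. More nuclei of another type and more open chromatin per nucleus cannot be told apart in these bulk libraries, and the part of other cell types in the results above was not tested.

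**Figure D5:**
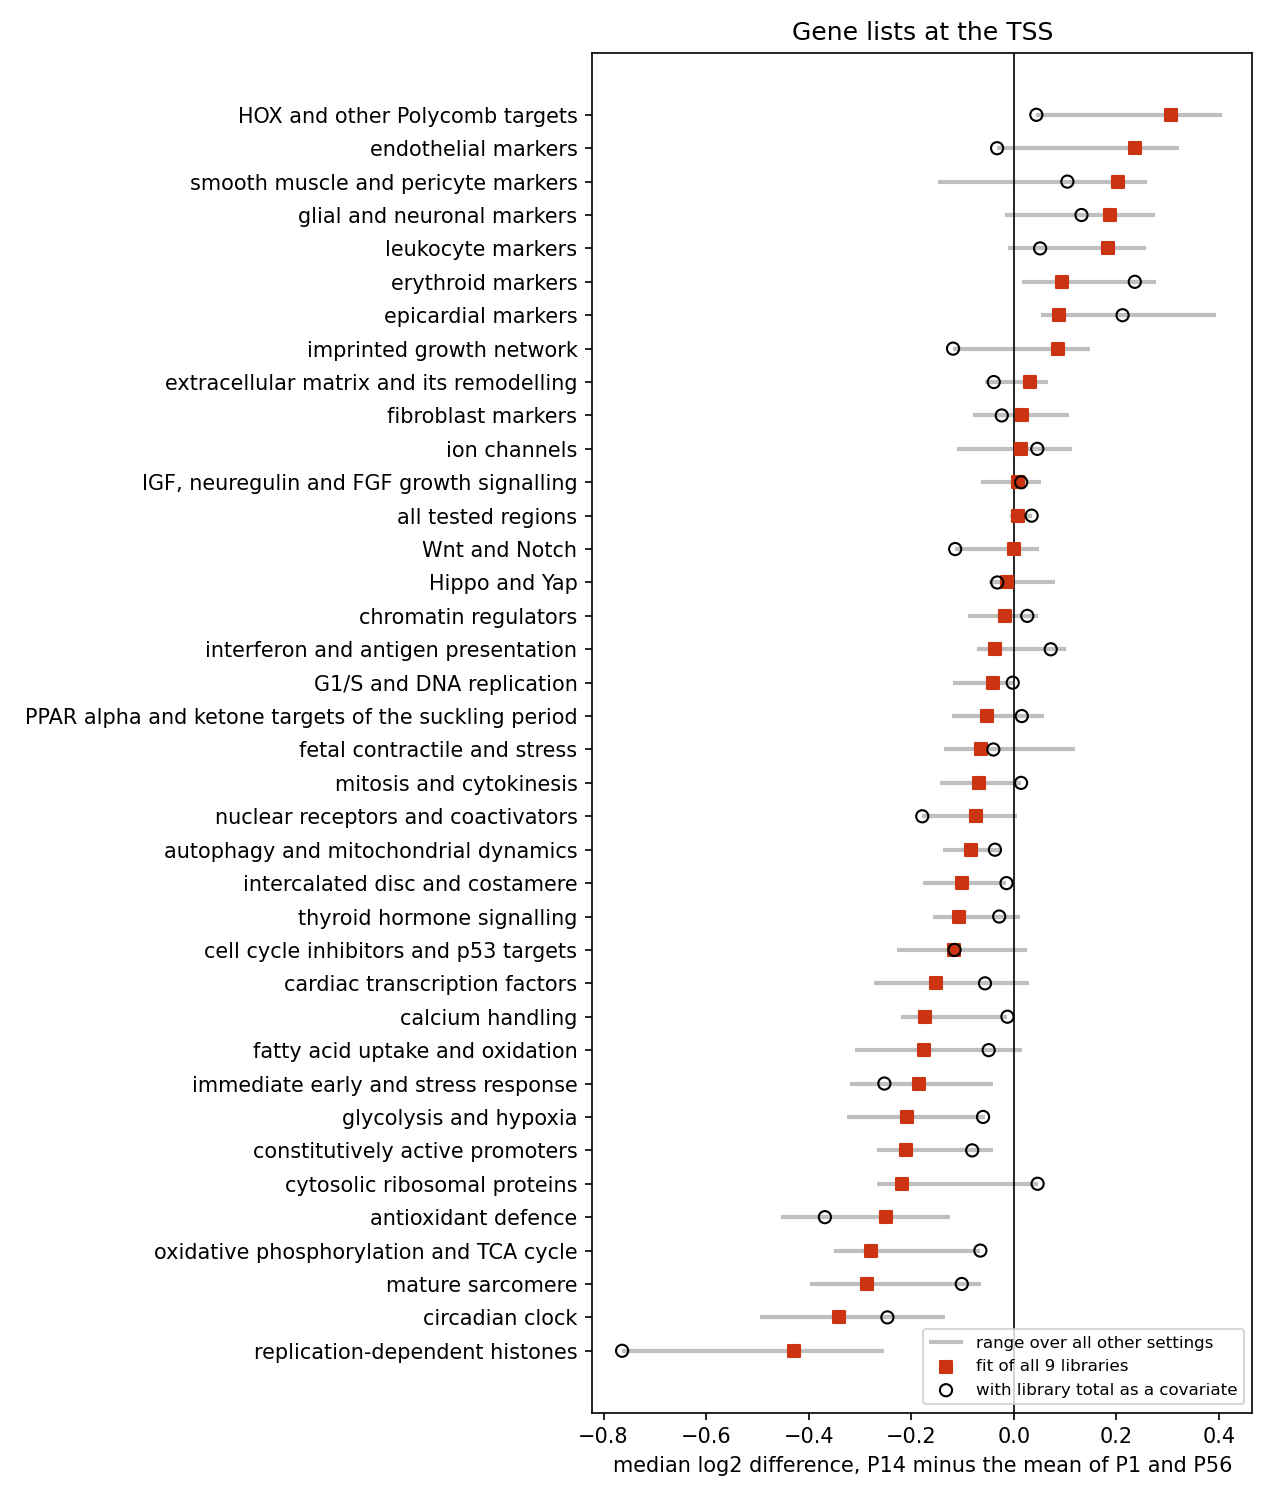
Median log2 difference of P14 from the mean of P1 and P56 (horizontal axis) for each gene list and for all tested TSS regions; squares show the fit of all libraries, open circles the fit with the library total as a covariate, and grey lines the range over all settings. HOX and other Polycomb targets moved from 0.31 to 0.04 and mature sarcomere from -0.29 to -0.10 with the covariate.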

How the data were processed

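ATAC-seq was measured in 9 libraries. The authors deposited unnormalised counts per TSS region and per peak; the build GRCm38 and featureCounts 1.4.2, MACS 1.4.0, bedtools 2.26, BWA 0.7.10, SAMtools 1.3.1 and bcl2fastq 2.17.1.14 are named per the submitters' processing notes. The TSS window width and the pooling of samples for peak calling are not given in the sources used here. In R 4.3.3, edgeR 4.0.16 was run with TMM factors, its expression filter, 1 coefficient per stage and the quasi-likelihood test of P14 minus the mean of P1 and P56, two-sided, with Benjamini-Hochberg adjustment at 0.05. A region beyond each end had to pass P14 against P1 and P14 against P56 in the same direction, by the larger p. Fits were tested on simulated counts with changes added at P14 only. Those counts held no difference between P1 and P56, no library standing apart and no link of CPM to depth. They therefore cannot show how the fits behave under such conditions. DESeq2 1.42.0 and limma-voom (limma 3.58.1), other scalings, count filters, thinning and left-out libraries were alternatives; the library total as a covariate and the fits without P1 replicate 1 and P56 replicate 2 were added after seeing the data.

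CPM values are counts scaled to equal library totals after TMM. P-values measure the spread between libraries of pooled hearts. The lowest mean count of a tested region was 10 in each table, so weaker regions were not analysed here. Counts were still sparse at P14. The median count per TSS region was 9 in P14 replicate 2 and 10 in P14 replicate 3, and per peak it was 10 in each. Named TSS regions were those called, then up to 10 per direction (5 for peaks) without overlap between P14 and the rest and with 20 or more counts on average, in order of p, passing over predicted genes, plus up to 3 members per list and a panel of 42 genes (40 measured, 0 called). Positions, starts and promoter sequences came from RefSeq for GRCm38.p6. The gene lists and panel were chosen with earlier results of these data known.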

Additional observations from a re-analysis of the deposited data

How the results depend on the processing

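By edgeR, TSS regions called numbered 1 with DESeq2 size factors, 1 with loess offsets, 1 at a mean count of at least 20, 0 at 50, 1 at an adjusted p under 0.01 and 1 with a log2 difference of at least 1, against 3 with all libraries. The DESeq2 Wald test and limma-voom each gave 0 (917 and 1979 at an unadjusted p under 0.05), and the count share of the top 10% of regions as a covariate gave 9, of which 4 had no overlap. For peaks the count was 1 at a mean count of at least 20, 0 at 50, 0 at an adjusted p under 0.01, 0 with the factors of the other table, 0 after thinning, 1 with the DESeq2 Wald test and 0 with limma-voom, against 2, with 0 free of overlap wherever 0 were called; at an unadjusted p under 0.05 these fits gave 435 TSS regions and 237 peaks at a mean count of 50, 2069 peaks with the other factors, 1288 after thinning and 2178 with limma-voom. The top share as a covariate gave 12 peaks, 7 without overlap. The library total as a covariate gave 0 and 0; with the pair of libraries also left out it gave 1 TSS region and 0 peaks, and log2 differences of -0.11 for Gm10800, -0.25 for Gm10801, -0.13 for Gm26917 and -0.093 for PK34880; with all libraries these were -0.12, -0.21, -0.23 and -0.14. Leaving out P1 replicate 1 and P56 replicate 2 gave 16 TSS regions, 10 without overlap and 1 beyond each end, and 149 peaks, 126 without overlap. With fewer libraries, lack of overlap was more common over all regions. In that fit all P14 libraries lay above the rest at 1135 of 32118 TSS regions and 1407 of 25240 peaks, and below at 1194 and 1237. With all libraries P14 lay above at 684 TSS regions and 724 peaks, and below at 476 and 426. Thinned as well, 11 TSS regions were called, 7 without overlap and 1 beyond each end, and 4 peaks, 2 without overlap. Leaving out each library in turn gave 0 to 4 TSS regions, 0 to 3 of them without overlap, and 0 to 9 peaks, 0 to 8 without overlap. The share of regions at a count of 0 differed by 0.23 percentage points at P14 for TSS regions and 0.11 for peaks, and by -0.031 and -0.26 after thinning; the cause was not tested. With the replicate block, 5 TSS regions (1 without overlap) and 10 peaks (6 without overlap) were called; same-numbered libraries correlated at -0.07 to 0.21 in their deviations from the stage means at TSS regions and -0.17 to 0.44 at peaks, and 5 of 9 libraries correlated best with their own number in each table, so the numbers were not used to pair libraries. Other causes were not tested.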

Other observations

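Replication-dependent histone genes, which package newly made DNA, had the lowest list median at -0.43, over only 8 measured genes, and it was -0.76 with the library total as a covariate. Hist1h1e, a linker histone, had 7.82, 13.7 and 16.3 CPM at P1, 6.66, 6.33 and 2.05 at P14 and 7.93, 21.8 and 9.32 at P56 (log2 difference -1.26, edgeR adjusted p = 0.818). Histone genes have near-identical copies, so these counts are uncertain. Cytosolic ribosomal protein genes had a median of -0.22 and constitutively active promoters -0.21, at 0.05 and -0.08 with the covariate. The imprinted growth network, a set of genes that fall together as juvenile growth ends, had P14 as the lowest stage at 0 of 20 genes and a median of 0.09, which was -0.12 with the covariate.

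Olfactory and vomeronasal receptor genes, which are silent in heart, made up 1.61% of the TSS regions with all P14 libraries above the others, 4.83% of those with all below and 3.40% of all tested regions. Nuf2, a kinetochore protein of dividing cells, had 26.9, 26.0 and 29.4 CPM at P1, 17.8, 21.1 and 16.4 at P14 and 30.0, 33.9 and 26.8 at P56 (log2 difference -0.66, edgeR adjusted p = 0.818). Mfn1, a mitochondrial fusion protein, had 96.0, 106 and 103 CPM at P1, 81.1, 80.1 and 83.997 at P14 and 103, 170 and 114 at P56 (log2 difference -0.49, edgeR adjusted p = 0.818). At each of the pair all P14 libraries lay below the others, and neither passed.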
